A study of Homo sapiens with 9 samples.

Results

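Histone genes were examined in OVCAR3, an epithelial ovarian cancer cell line, in cells with raised or reduced CTCFL, the germline paralog of the insulator protein CTCF that the sample labels call BORIS. The genes were chosen by name alone: protein-coding genes whose current symbol starts with H1-, H2AC, H2BC, H3C or H4C followed by a digit. In the GENCODE release 44 annotation 74 genes meet this rule, and 72 of them were found among the 60660 genes of the counts matrix. H2AC18 and H2AC19 were not analysed here. The 72 genes comprise 10 H1, 15 H2A, 19 H2B, 13 H3 and 15 H4 genes, of which 55 lie on chromosome 6 and 11 on chromosome 1.

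Each group held 3 libraries, called biological replicates in the study's methods. Control cells received 2 µg of a LacZ plasmid, and CTCFL-OE cells the same amount of a CTCFL expression plasmid. Both were transfected transiently and harvested after 48 h, and in these transfections 3 technical replicates were pooled into each biological replicate. For CTCFL-KD the RNA was taken from knockdown experiments published earlier, so knockdown and experiment cannot be told apart in any comparison of CTCFL-KD. The 3 Control libraries serve both treated groups.

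Replication-dependent histone genes supply the H1 linker and the H2A, H2B, H3 and H4 core histones that package newly made DNA in S phase. They are small, mostly without introns, and sit in clusters where many copies encode the same protein. Their mRNAs are the known exception among metazoan mRNAs in that they end in a conserved stem-loop, bound by SLBP, in place of a poly(A) tail. NPAT, a substrate of cyclin E and CDK2, activates their transcription. Some of these genes also give polyadenylated transcripts from sites beyond the stem-loop, as is known for cells that leave the cycle. The symbol rule also takes genes outside this class, such as H1-10, a linker histone made outside S phase from a polyadenylated mRNA, and the germline linker histones H1-7 and H1-8.

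The libraries were made with a kit that selects polyadenylated mRNA, so the counts measure mainly the polyadenylated part of these transcripts and cannot give the total histone mRNA of the cells. A change in the share of cells in S phase and a change in histone mRNA per cell cannot be told apart in these bulk samples.

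The stem-loop is shown first because it is the feature that takes the place of the poly(A) tail. Its 16-base pattern was searched in the coding strand of GRCh38 within 200 bases after the stop codon. It was found in 67 of the 72 histone genes (93.1%) and in 6 of 19530 other protein-coding genes (0.0307%). H1-7, H1-8, H1-10 and H2BC12L were among the genes without it. In the 67 genes it began 23 to 63 bases after the stop codon, with a median of 36. The 4 commonest forms are given with the stem in capitals and the loop in lower case.
Form of 38 H1, H2A, H2B and H3 genes: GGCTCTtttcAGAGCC
Form of 10 H4 genes: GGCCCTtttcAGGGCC
Form of 9 H1, H2A, H2B and H3 genes: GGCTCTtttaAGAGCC
Form of 4 H4 genes: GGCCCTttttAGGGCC
The forms of the H4 genes were thus not found in the other families, and 6 further forms occurred in 1 gene each.

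Promoters were read from RefSeq on GRCh38.p14 for 65 of the 72 genes, as 300 bases around the annotated start. They are shown for H2AC8 with H2BC8, H4C5 and H1-2, which were single genes higher in CTCFL-KD. The stretch between H2AC8 and H2BC8 serves 2 genes transcribed away from each other. Capitals mark, on either strand, the octamer ATTTGCAT, the TATA box TATAAA, the CCAAT box, the H1 box AAACACA and the HINFP core GGTCCG. None of these matches overlaps another in the sequences shown.
H2AC8 and H2BC8, chr6:26216689-26216920, + strand: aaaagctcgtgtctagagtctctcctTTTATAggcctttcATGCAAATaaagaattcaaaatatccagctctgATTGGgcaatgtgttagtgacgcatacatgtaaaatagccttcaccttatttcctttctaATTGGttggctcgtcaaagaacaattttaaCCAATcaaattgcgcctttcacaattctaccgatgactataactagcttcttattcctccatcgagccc
H4C5, chr6:26204360-26204609, + strand: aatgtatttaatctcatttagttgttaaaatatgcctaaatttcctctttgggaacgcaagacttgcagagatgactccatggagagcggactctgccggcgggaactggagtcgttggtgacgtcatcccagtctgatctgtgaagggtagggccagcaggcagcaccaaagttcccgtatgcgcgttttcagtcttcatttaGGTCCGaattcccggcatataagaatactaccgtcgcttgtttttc
H1-2, chr6:26056471-26056720, - strand: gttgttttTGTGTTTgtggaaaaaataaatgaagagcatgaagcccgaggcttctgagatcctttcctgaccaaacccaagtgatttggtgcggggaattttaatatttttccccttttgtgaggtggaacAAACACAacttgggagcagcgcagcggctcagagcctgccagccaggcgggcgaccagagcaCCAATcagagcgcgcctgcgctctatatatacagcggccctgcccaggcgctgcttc
The octamer, a site of the POU factor OCT1, was found in 11 of 14 H2A and 14 of 18 H2B promoters, against 1.77% of 35116 promoters. GGTCCG, the core of the site of the H4 factor HINFP, was found in 12 of 13 H4 promoters, against 11.3% of all. The H1 box was found in 7 of 9 H1 promoters, against 5.64% of all. A core of the binding motif of CTCF, searched on both strands, was found in 1 of 65 histone promoters (1.54%), against 4.64% of all. These matches describe letters in a window and not binding.

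Differentially expressed genes (DEGs) are those with a log2 fold change beyond 1 and an adjusted p under 0.05 in edgeR's quasi-likelihood test, or under 0.1 for CTCFL-OE against Control. CTCFL itself had counts of 6, 9 and 10 in the Control libraries and of 36, 34 and 72 in the CTCFL-OE libraries. Those of CTCFL-KD held 0, 1 and 0 counts. CTCFL rose by 2.73 ± 0.48 on the log2 scale in CTCFL-OE (SE, adjusted p = 0.0287), and the CTCFL-KD libraries lay at or under the 3 counts that a count of 0 allows. Total counts per library ranged from 14332622 to 24490080. Of 10 ovarian carcinoma and epithelial marker genes all 10 passed the low-count filter, with summed levels of 5365 to 5471 CPM (counts scaled to TMM library sizes) in Control and 9141 to 14927 CPM in CTCFL-KD, where 5 were DEGs higher and KRT7 lower. Mitochondrial genes took 6.16% to 6.52% of counts in Control, 7.40% to 14.9% in CTCFL-OE and 7.80% to 11.8% in CTCFL-KD. The 10 fibroblast markers summed to 28.0 to 33.8 CPM in Control, with COL1A2, COL3A1 and DCN at 0, to 25.0 to 44.1 CPM in CTCFL-OE, with COL3A1 at 0, and to 37.7 to 43.0 CPM in CTCFL-KD. Of the 4 fibroblast markers tested, 2 were DEGs higher in CTCFL-KD. COL1A2, a fibrillar collagen gene, had 156, 239 and 247 counts there, against 1, 2 and 0 in CTCFL-OE and 0 in each Control library. POSTN had 9, 18 and 13 counts, against 2, 1 and 5 in Control. The 8 leukocyte markers reached summed levels of at most 1.78 CPM in the Control libraries, 2.95 CPM with overexpression and 4.68 CPM with knockdown, with CD3E and CD68 at 0 in Control and CD68 and CSF1R at 0 in CTCFL-KD. Among the leukocyte markers, CD14 was a DEG higher and CSF1R a DEG lower in CTCFL-KD, with 22 to 34 counts of CD14 against 2 to 4 in Control. The part of these marker and mitochondrial shifts in the histone results was not tested. Library CTCFL-KD 1 stood apart from the other 8: its TMM factor was 0.775, against 0.945 to 1.09 in the others, and its short transcripts were enriched. In 335 other protein-coding genes whose longest transcript is under 1000 bases, the median log2 ratio to Control was 1.32 in CTCFL-KD 1, −0.05 in CTCFL-KD 2 and −0.03 in CTCFL-KD 3. Counts of the CTCFL-KD group are therefore also given without that library where it moves them.

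Many histone genes had few or no reads. Of the 72 genes, 10 had no count in any library, and 23 more failed the low-count filter with at most 14 counts in a library. The 39 genes that could be tested were 4 H1, 6 H2A, 14 H2B, 6 H3 and 9 H4 genes. The 72 genes together took between 0.0578% and 0.121% of the counts of a library.

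Levels between genes are compared as CPM per kilobase of the longest annotated transcript, and the transcript that the cells make may be shorter than that model. On this scale, H2BC12 had the highest mean Control level among the genes with a stem-loop, at 101 CPM per kilobase, followed by H4C9 at 56.9, H1-2 at 37.6 and H2AC6 at 16.7. H1-10, a linker histone without a stem-loop, stood at 114 CPM per kilobase. Before division by length, H1-10 stood at 178, 158 and 182 CPM in the 3 Control libraries and H2BC12 at 49.8 ± 2.94 CPM (SD, n = 3).

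**Figure D1:**
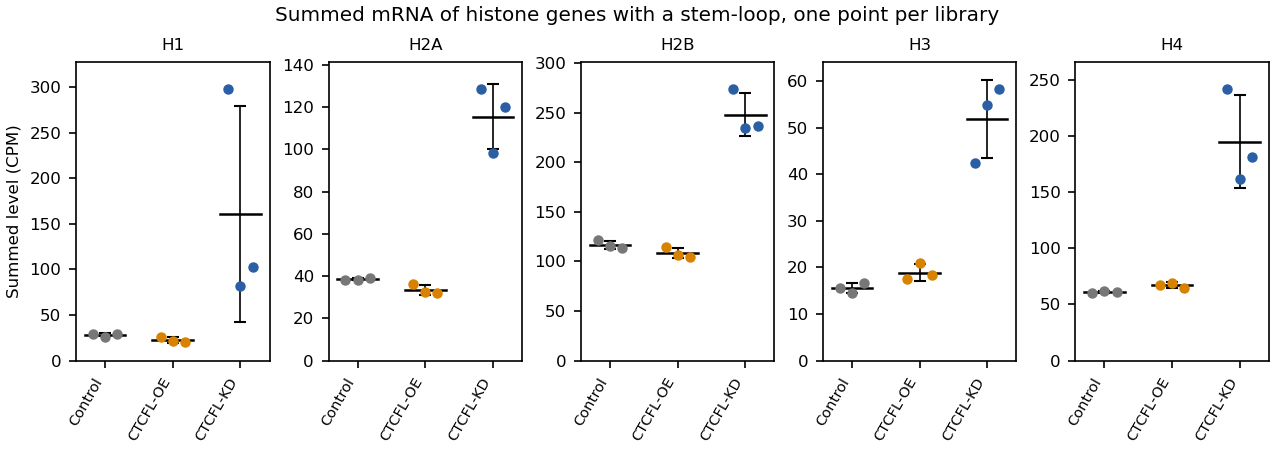
Summed level in CPM (linear axes starting at 0) of the genes with a stem-loop in each histone family and library, with 1 point per library, the mean as a bar and the SD as whiskers. The CTCFL-KD points lie above all Control points in each of the 5 families, and CTCFL-KD 1 stands at 298 CPM in H1, above 82.2 and 103 CPM in the other 2.

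The summed level of histone genes with a stem-loop was higher in CTCFL-KD than in Control in each of the 5 families. The 67 genes with a stem-loop summed to 264, 257 and 261 CPM in the Control libraries, 262, 251 and 240 CPM in CTCFL-OE and 983, 632 and 699 CPM in CTCFL-KD. The 3 CTCFL-KD libraries lay above the other 6, and CTCFL-OE overlapped Control. Of these, H2A genes summed to 38.6 ± 0.58 CPM in Control and 116 ± 15.6 CPM in CTCFL-KD (SD, n = 3). H4 genes summed to 61.4 ± 0.76 CPM in Control and 195 ± 41.5 CPM in CTCFL-KD. H2B genes went from 117 ± 3.90 to 248 ± 22.01 CPM and H3 genes from 15.6 ± 1.02 to 51.8 ± 8.37 CPM. H1 genes went from 28.2 ± 1.76 to 161 ± 119 CPM, with the high value in CTCFL-KD 1.

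Of the 39 genes tested, 25 were DEGs higher in CTCFL-KD (64.1%, against 15.3% of the 17794 genes tested) and 0 were lower (against 7.94%). The adjusted p was passed by 29 higher genes whatever their fold (against 21.4%). At an unadjusted p under 0.05 edgeR found 32 higher, with 0 lower past the fold threshold, and DESeq2 gave 24 DEGs higher and 0 lower. The median log2 fold change of the 39 genes was 1.41, against 0.08 over all genes tested. In 31 of the 39 the 3 CTCFL-KD libraries lay above the 3 Control libraries, against 28.7% of all genes. The DEGs were 1 of 4 H1, 4 of 6 H2A, 9 of 14 H2B, 5 of 6 H3 and 6 of 9 H4 genes.

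**Figure D2:**
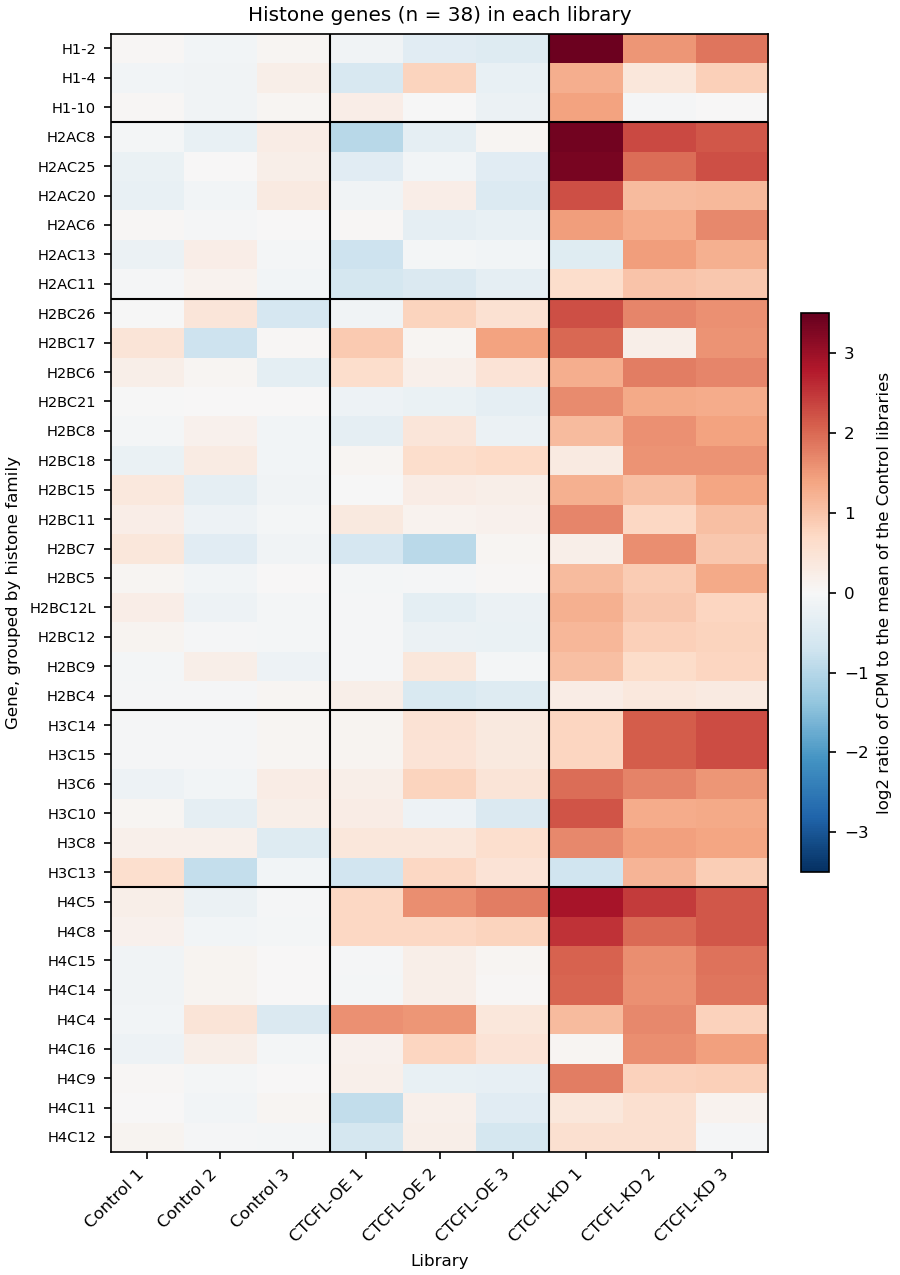
Heat map of the log2 ratio of CPM in each library to the mean of the Control libraries, with 0.1 CPM added to both, for 38 histone genes (rows, grouped by family) and the 9 libraries (columns). The CTCFL-KD columns are mostly red.

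Among the H2A genes, H2AC8 changed most. It stood at 0.95, 0.81 and 1.21 CPM in Control, 0.46, 0.78 and 1.04 CPM in CTCFL-OE and 11.3, 5.34 and 4.87 CPM in CTCFL-KD. The CTCFL-KD libraries lay far above the others, with a log2 fold change of 2.84 ± 0.39 (SE, adjusted p = 0.00035). H2AC25, an H2A gene on chromosome 1, followed at 2.67 ± 0.34, with CTCFL-KD values of 22.7, 8.84 and 10.9 CPM against 1.85 to 2.53 CPM in Control. H2AC6, the H2A gene with most reads, rose from 28.5, 27.0 and 27.9 CPM in Control to 76.6, 68.4 and 89.2 CPM (log2 fold change 1.49 ± 0.17, adjusted p = 0.000111). H2AC20 rose by 1.63 ± 0.35, H2AC11 passed the adjusted p alone at 0.88 ± 0.21, and H2AC13 did not pass at 1.06 ± 0.42 (adjusted p = 0.0659), with CTCFL-KD 1 at 0.81 CPM, under the lowest Control library, and the other 2 above the highest.

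H2BC21, an H2B gene on chromosome 1, stood at 25.1, 25.5 and 25.3 CPM in Control, 22.5, 21.4 and 20.4 CPM in CTCFL-OE and 80.3, 63.2 and 62.4 CPM in CTCFL-KD, with a log2 fold change of 1.44 ± 0.16. H2BC12, the gene with a stem-loop that had the highest level in Control, went from 53.2, 48.8 and 47.6 CPM to 111, 89.5 and 85.4 CPM, which passed the adjusted p of 0.00149 but not the fold threshold (0.93 ± 0.17). The CTCFL-KD libraries lay above the other 6 in both genes. The other 8 H2B DEGs, H2BC5, H2BC6, H2BC7, H2BC8, H2BC11, H2BC15, H2BC18 and H2BC26, had log2 fold changes from 1.13 to 2.07. H2BC7 was the weakest call, with CTCFL-KD 1 at 1.17 CPM inside the Control range of 0.74 to 1.35 CPM, and it was no DEG in 14 of 19 alternatives. H2BC4 stood at 12.1, 12.1 and 12.9 CPM in Control and 14.8, 16.1 and 15.4 CPM in CTCFL-KD (0.32 ± 0.21, adjusted p = 0.248), and its gene model overlaps those of H1-6 and H4C3. H2BC12L, the H2B gene without a stem-loop, passed the adjusted p alone at 0.999 ± 0.20.

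In H3, the DEGs H3C6, H3C8, H3C10, H3C14 and H3C15 had log2 fold changes from 1.56 to 1.91. H3C6 stood at 1.90, 2.02 and 2.63 CPM in Control and 8.82, 7.48 and 6.51 CPM in CTCFL-KD. H3C14 and H3C15 have the same coding sequence, and their counts were equal in 8 of 9 libraries, with 105 and 103 counts in CTCFL-OE 2. Their 2 calls therefore rest on the same or nearly the same reads, and each copy's own level is not known.

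The H4 genes held the only histone DEG of CTCFL-OE. H4C5 stood at 0.80, 0.58 and 0.66 CPM in Control, 1.18, 2.30 and 2.58 CPM in CTCFL-OE and 5.67, 4.16 and 3.45 CPM in CTCFL-KD, from 13 to 16 counts per Control library. Each treated library lay above each Control library in this low-count gene. The log2 fold change in CTCFL-KD was 2.69 ± 0.35 (adjusted p = 0.000232). H4C8 had more reads and showed the same order, with 7.25, 6.09 and 6.22 CPM in Control, 10.9, 10.8 and 11.2 CPM in CTCFL-OE and 38.1, 26.3 and 29.9 CPM in CTCFL-KD. It rose by 2.27 ± 0.19 on the log2 scale in CTCFL-KD (adjusted p = 1.3e-05). H4C9 rose by 1.23 ± 0.27 and H4C16, on chromosome 12, by 1.30 ± 0.38 with CTCFL-KD 1 inside the Control range. H4C14 and H4C15 also share their coding sequence, with counts that differed by 5 to 17 in each library, and had log2 fold changes of 1.85 ± 0.18 and 1.88 ± 0.18. H4C11 and H4C12 share a coding sequence too, with differences of 2 to 12 counts, and did not pass at 0.40 ± 0.31 and 0.39 ± 0.30. With each of the 2 near-equal pairs, H3C14 with H3C15 and H4C14 with H4C15, counted once, 23 histone DEGs remained.

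**Figure D3:**
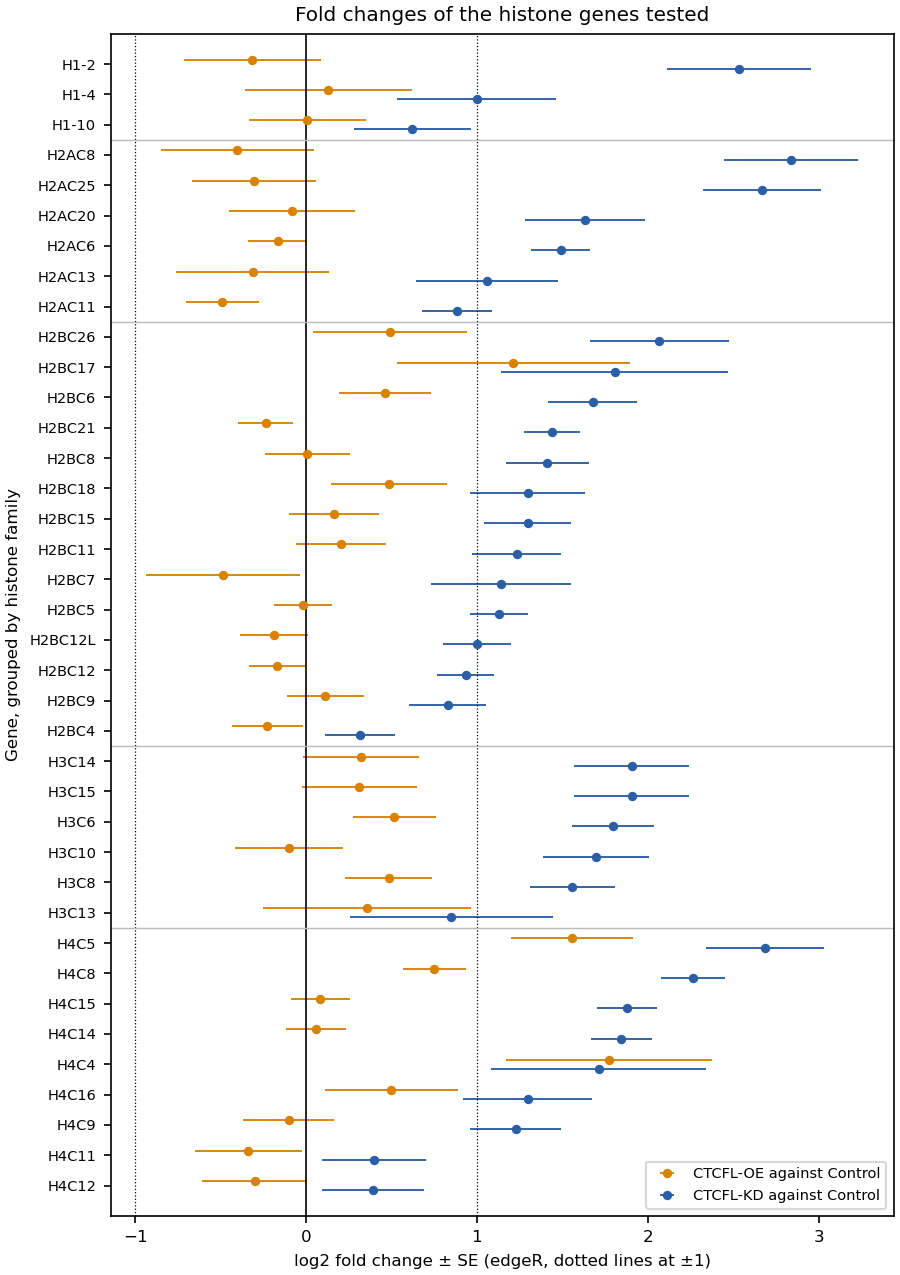
Log2 fold change with its SE against Control for 38 histone genes, in CTCFL-OE and in CTCFL-KD, from the edgeR fit of all 9 libraries, with dotted lines at ±1. The CTCFL-KD points of these 38 genes lie right of 0, while most CTCFL-OE points lie within 0.5 of 0.

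The H1 genes did not move together. H1-2, a linker histone of the replication-dependent class with an H1 box in the promoter shown above, stood at 28.1, 25.5 and 28.8 CPM in Control, 25.4, 20.7 and 20.1 CPM in CTCFL-OE and 296, 81.0 and 101 CPM in CTCFL-KD. H1-2 rose by 2.53 ± 0.42 on the log2 scale (adjusted p = 0.000994), and by 1.73 without CTCFL-KD 1. H1-10 stood at 454 CPM in CTCFL-KD 1 and at 168 and 175 CPM in the other 2, which overlap Control. Its log2 fold change of 0.62 ± 0.34 (adjusted p = 0.173) went to −0.0027 without CTCFL-KD 1. H1-4, a gene of low counts, showed 0.999 ± 0.47 (adjusted p = 0.112).

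The group medians by library show how far CTCFL-KD 1 bears on these results. The median log2 ratio of the 39 histone genes to Control was 1.28 in CTCFL-KD 1, 1.32 in CTCFL-KD 2 and 1.32 in CTCFL-KD 3, whereas the other short genes were high in CTCFL-KD 1 alone. The 24 histone genes with a longest transcript under 1000 bases had medians of 1.11, 1.14 and 1.09 in the 3 libraries, and the 15 longer ones 1.66, 1.59 and 1.53. Of the 25 DEGs, CTCFL-KD 1 was the highest of the 3 libraries in 15, the lowest in 7 and in between in 3. Without CTCFL-KD 1, 25 histone genes were DEGs (against 14.8% of all genes), 23 of them the same. With each library's length and GC trends taken out, 23 were DEGs (against 13.0% of all genes), and these 23 were among the 25. In every one of the 19 alternatives that tested them, 20 of the 25 remained DEGs, with H2BC26 not tested where at least 10 counts were asked of every library. The exceptions were H2BC7, H2BC11, H2BC18, H4C9 and H4C16, of which H2BC11 and H4C9 lost the call without CTCFL-KD 1.

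**Figure D4:**
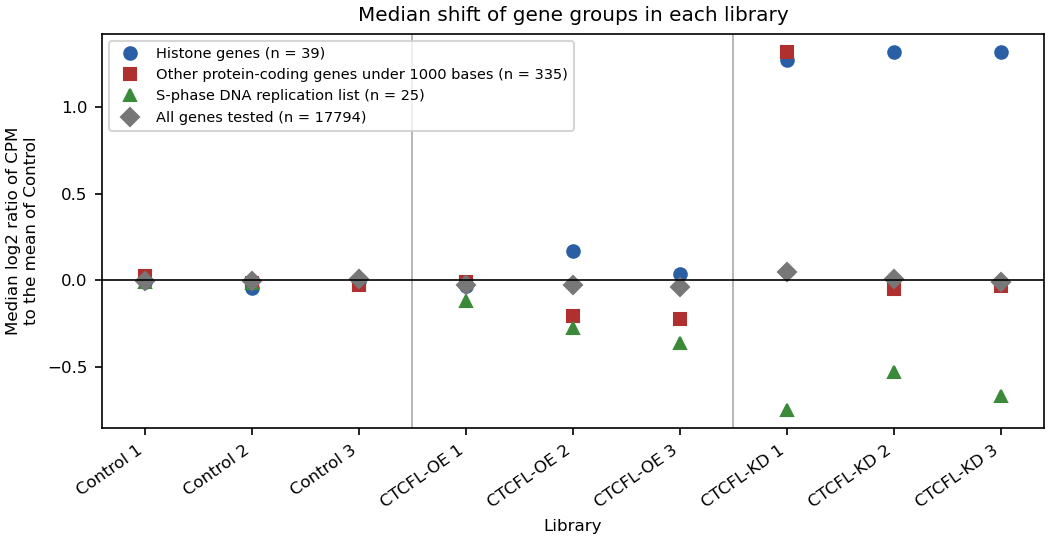
Median log2 ratio of CPM to the mean of the Control libraries for 4 gene groups in each of the 9 libraries. Histone genes lie between 1.28 and 1.32 in all 3 CTCFL-KD libraries, while other protein-coding genes under 1000 bases reach 1.32 in CTCFL-KD 1 alone and the S-phase list lies below 0 in all CTCFL-OE and CTCFL-KD libraries.

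Transcript models that run past the stem-loop were set apart, since only transcripts with a poly(A) tail are selected. Of 16 tested genes with an annotated model that ends more than 100 bases beyond the stem-loop, 15 were DEGs higher in CTCFL-KD, with a median log2 fold change of 1.58. Of 20 tested genes whose models all end within 100 bases of it, 10 were DEGs, with a median of 1.32. Of the 3 tested genes without a stem-loop, 0 were DEGs. The difference between these classes was not tested. Among the 9 members listed as known to give polyadenylated mRNA, H1-2, H2AC6, H2BC5, H2BC11 and H2BC21 were DEGs, while H2BC12, H2BC4 and H1-10 were among those that were not. Small RNAs without a poly(A) tail summed to 107 CPM in CTCFL-KD 1, 21.7 and 29.1 CPM in CTCFL-KD 2 and 3, and 12.02 to 28.1 CPM in the other libraries. Of 26 such RNAs 4 were tested, and 2 were DEGs higher in CTCFL-KD (against 15.3% of all genes), RNU1-1 (2.78 ± 0.74) and SNORD3A (1.71 ± 0.60). DESeq2 called 3 higher, and at an unadjusted p under 0.05 RN7SL1 also lay higher past the fold threshold (1.15 ± 0.51, adjusted p = 0.097). RNU1-1 was still a DEG without CTCFL-KD 1, at 1.36 (adjusted p = 0.0335). SNORD3A was no DEG without CTCFL-KD 1 (0.94, adjusted p = 0.164) or with the replicate number as a block (adjusted p = 0.0731). The part of poly(A) selection in the histone result was not tested.

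How reads were assigned limits some single genes. At a read length of 75 bases, 19 of the 39 tested genes had no stretch of that length in common with another member or a histone pseudogene, and 13 of these were DEGs in CTCFL-KD. In 7 tested genes more than 50% of such stretches were shared, and 4 of these were DEGs. The spans of 19 tested genes overlap another annotated gene, 13 of them on the same strand, and 12 of the 20 without overlap were DEGs. H2AC6, H2AC8, H2AC25, H3C6 and H4C5 are among those 13. Of the 6 tested genes with neither a shared stretch nor an overlap, 4 were DEGs. Most of the histone DEGs thus carry a limit of this kind.

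In the 12 H2A and H2B pairs that start head to head 170 to 251 bases apart, both genes passed the filter in 5. In CTCFL-KD the log2 fold changes of H2AC8 and H2BC8 were 2.84 ± 0.39 and 1.41 ± 0.24, and those of H2AC25 and H2BC26 were 2.67 ± 0.34 and 2.07 ± 0.41. H2AC20 and H2BC21 showed 1.63 ± 0.35 and 1.44 ± 0.16, and H2AC11 and H2BC11 showed 0.88 ± 0.21 and 1.23 ± 0.26. In the remaining pair, H2AC6 was a DEG and H2BC4 was not. The H2A gene thus had the larger fold change in 4 of the 5 pairs. In 4 pairs the H2B gene alone could be tested, among them H2BC12 with 10126 counts over all libraries beside H2AC12 with 25.

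In CTCFL-OE, the measured levels of most histone genes lay near Control. Of the 39 genes, 1 was a DEG higher in CTCFL-OE (2.56%, against 1.37% of all genes) and 0 were lower (against 0.702%), at an adjusted p under 0.1. DESeq2 gave the same counts, and at an unadjusted p under 0.05 edgeR found 3 higher and 1 lower. The adjusted p alone was passed by 2 (against 3.15%), both higher (against 1.99%). The fit shares its estimate of spread with CTCFL-KD 1, and without that library 27.4% of all genes passed the adjusted p in CTCFL-OE. H4C5 had a log2 fold change of 1.56 ± 0.36 (adjusted p = 0.0662). It lost the call with the replicate number as a block (adjusted p = 0.104) and without any 1 of the Control libraries, CTCFL-OE 2 or CTCFL-OE 3 (adjusted p from 0.223 to 0.282). H4C8 passed the adjusted p alone, at 0.75 ± 0.18 (adjusted p = 0.0795). The median log2 fold change of the 39 genes was 0.06, against −0.01 over all genes. CTCFL-OE libraries lay above Control in 5 genes (against 16.3% of all) and below it in 3 (against 20.8%). All 6 H2A genes had log2 fold changes below 0, from −0.49 to −0.08, and none passed the test.

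The direct comparison of the treated groups gave 27 of 39 genes higher in CTCFL-KD than in CTCFL-OE (69.2%, against 10.6% of all genes) and 0 lower (against 6.42%). At an unadjusted p under 0.05 edgeR found 32 higher, with 0 lower past the fold threshold, and DESeq2 gave 26 higher and 0 lower. The adjusted p was passed by 28 higher genes (against 15.3%), and the CTCFL-KD libraries lay above those of CTCFL-OE in 28 genes (against 20.3%). Of the 27 DEGs, 23 were also DEGs against Control. All 6 H2A genes were DEGs here, led by H2AC8 at 3.24, though H2AC13 (1.37, adjusted p = 0.0384) lost the call in 8 of the 9 fits without 1 library (adjusted p up to 0.127). H4C5 and H4C8 were higher in CTCFL-KD than in CTCFL-OE by 1.13 and 1.52 on the log2 scale (adjusted p = 0.0224 and 0.000194). H4C5 lost this call without CTCFL-OE 1 (0.84, adjusted p = 0.0521), CTCFL-OE 2 or CTCFL-KD 1, while H4C8 kept it without any 1 library. H4C16 and H2BC18, higher in CTCFL-KD than in Control, did not pass against CTCFL-OE (adjusted p = 0.134 and 0.0922).

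Genes of DNA replication and of histone mRNA production gave 0 DEGs higher in CTCFL-KD by edgeR or DESeq2. In the S-phase DNA replication list, 0 of 25 genes lay higher at an unadjusted p under 0.05, and 2 were DEGs lower (against 7.94% of all genes), UHRF1 (−1.18 ± 0.19), which keeps DNA methylation through replication, and GINS4 (−1.13 ± 0.26), a subunit of the replicative helicase. DESeq2 gave 3 DEGs lower. The adjusted p was passed by 14 of the 25 (against 38.2% of all genes), the log2 fold changes of all 25 lay below 0, and their median was −0.71. Of 12 genes of histone gene transcription, 1 was a DEG lower (against 7.94%), cyclin E2 (CCNE2) at −1.11 ± 0.25. NPAT stood at 20.7, 19.1 and 21.2 CPM in Control and 8.19, 15.8 and 17.2 CPM in CTCFL-KD (−0.55 ± 0.24, adjusted p = 0.0925). HINFP, the H4 factor, stood at 10.9 to 12.5 CPM in Control and 13.7 to 17.0 CPM in CTCFL-KD (0.37 ± 0.17, unadjusted p = 0.0442, adjusted p = 0.0942), and was the 1 gene of the list higher at an unadjusted p under 0.05. Without CTCFL-KD 1, neither CCNE2 (−0.89) nor GINS4 (−0.85) was a DEG, while UHRF1 was.

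Among 13 genes of histone mRNA 3' end processing 0 were DEGs in CTCFL-KD by edgeR and 5 passed the adjusted p (against 38.2%), with a median of −0.33. At an unadjusted p under 0.05, 6 lay lower and 0 higher, and DESeq2 gave 1 DEG lower. SLBP, which binds the stem-loop shown above, stood at 80.0, 77.4 and 76.7 CPM in Control, 64.1, 54.7 and 49.3 CPM in CTCFL-OE and 50.9, 42.3 and 40.5 CPM in CTCFL-KD. Both treated groups lay below Control and overlapped each other. SLBP fell by 0.81 on the log2 scale in CTCFL-KD with an SE of 0.17 (adjusted p = 0.00366), and stood at −0.48 ± 0.17 in CTCFL-OE (adjusted p = 0.179). Of 17 histone chaperones, 1 was a DEG lower (against 7.94%), ASF1B, which hands H3 and H4 to the replication fork, at −1.02 ± 0.16, and the median was −0.35. Of 10 tested replication-independent histones, whose mRNAs carry poly(A) tails, 1 was a DEG higher (against 15.3%), H2AJ at 1.11 ± 0.34, from 52.3, 18.3 and 20.8 CPM in CTCFL-KD against 13.6 to 14.3 CPM in Control. Without CTCFL-KD 1 its log2 fold change was 0.49 and it was no DEG, and with the replicate block it was 0.99. In CTCFL-OE 0 genes of these 5 lists were DEGs or passed the adjusted p in edgeR's test. At an unadjusted p under 0.05, 4 S-phase, 3 processing, 1 transcription, 3 chaperone and 1 replication-independent histone gene lay lower and 0 higher, and DESeq2 gave 0 DEGs. Without CTCFL-KD 1 in the fit, which shares its estimate of spread with this comparison, 12 of the 25 S-phase genes passed the adjusted p in CTCFL-OE (against 27.4% of all genes), with a median of −0.30.

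**Figure D5:**
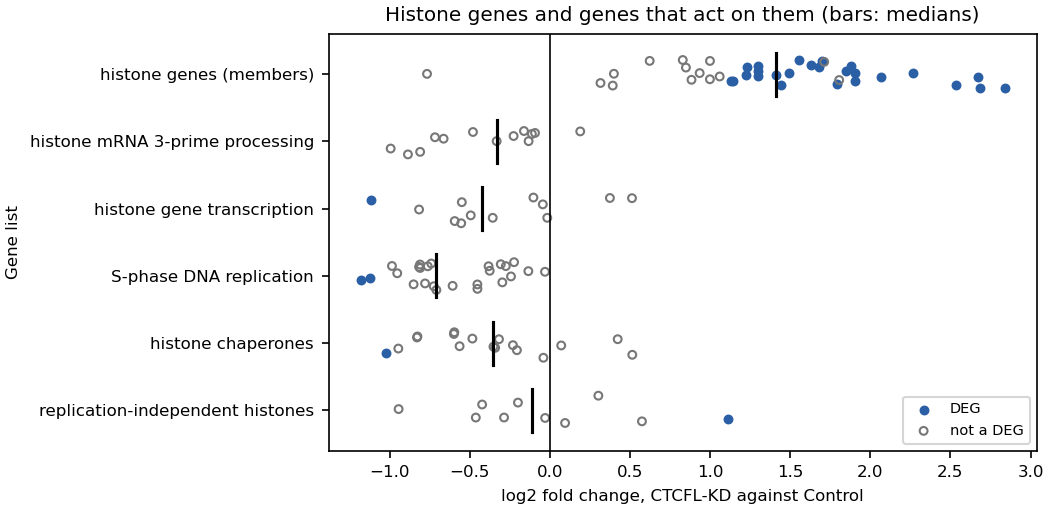
Log2 fold change in CTCFL-KD against Control for the histone genes and 5 lists of related genes, with 1 point per gene tested, filled where it is a DEG, and the median of each list as a bar. The histone genes have a median of 1.41 and the lists have medians from −0.71 to −0.11.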

How the data were processed

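The authors made stranded, poly(A)-selected libraries, sequenced them as paired reads of 75 bases and used STAR on GRCh38 and featureCounts per gene; the submitters' notes list Trimmomatic, featureCounts and kallisto. The deposited values are raw counts per gene, with strandedness of the counting and handling of multi-mapping reads not given in the sources used here. The study calls the replicates biological. Histone genes, lists and tests were chosen with earlier results of these data known.

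Counts were analysed in R 4.3.3 with edgeR 4.0.16 (filterByExpr, TMM, robust quasi-likelihood fit of all 9 libraries, Benjamini-Hochberg adjustment over 17794 genes). The thresholds against Control are those of the study's methods. Positions came from GENCODE release 44, which named 60419 of 60660 identifiers. Tables and figures used Python 3.11.15, pandas 2.3.3 and matplotlib 3.10.9. Recovery of known changes was tested on simulated data. The limit of 3 counts for a count of 0 covers counting error only. The SE comes from the edgeR fit and the SD from the libraries of a group, so both include spread between libraries. Named are the members called in any of the 3 comparisons, the 12 highest in Control, those listed as polyadenylated, copies with identical coding sequence, SLBP, NPAT, CTCFL and, for each list, the 2 called genes with the highest and the 2 with the lowest fold change in CTCFL-KD; H1-4, H2AC12, H2BC20P, HINFP, RN7SL1, COL1A2, POSTN, CD14, CSF1R, KRT7 and the markers at 0 were named after their values were seen. 1 gene tested is counted with the others but is not reported here.

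Between Control and CTCFL-KD, deviations from the group mean correlated for equal replicate numbers by 0.332, 0.185 and 0.232 over 13025 genes. For Control and CTCFL-OE the values were −0.04, 0.22 and −0.05. The main fit held the group only and was not paired. Replicate numbers entered as a block in alternative fits of all 9 libraries, from the data and not from the labels. Alternatives were RLE and upper-quartile scaling, DESeq2 1.42.0, the 2 groups alone, other low-count filters, robust estimation off, the replicate block, length and GC trends removed, each library left out in turn, and, chosen after seeing the data, near-identical copies counted once.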

Additional observations from a re-analysis of the deposited data

Results flagged for a closer look

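H2BC19P, a histone H2B pseudogene outside the 72 genes, drew attention because it gave a signal above Control outside the main measurement. It stood at 9.0, 10.01 and 7.89 CPM in Control and at 8.73, 26.1 and 23.2 CPM in CTCFL-KD, with a log2 fold change of 1.12 ± 0.34 (adjusted p = 0.0235 in edgeR's quasi-likelihood test). CTCFL-KD 1 lay inside the Control range, and the log2 fold change was 1.46 without that library and 0.95 (adjusted p = 0.107) with length and GC trends removed. H2BC20P, another H2B pseudogene, showed 0.97 ± 0.29 (adjusted p = 0.0228). Of 17 histone pseudogenes in the matrix 3 passed the low-count filter, and reads that fit both a pseudogene and a histone gene were not told apart.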

How the results depend on the processing

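The count of histone DEGs higher in CTCFL-KD than in Control lay between 23 and 27 over all alternatives, and between 23 and 26 with 1 library left out. The count against CTCFL-OE lay between 22 and 27. No histone DEG was lower in the 19 alternatives in which this was counted. The single histone DEG of CTCFL-OE gave a count of 0 with the replicate block and of 0 to 2 with 1 library left out. The block changed no other count of histone DEGs by over 1.5 times. The cause of these changes was not tested.

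With length and GC trends removed, 0 genes of histone gene transcription, 1 replication-independent histone and 1 RNA without poly(A) tail were lower in CTCFL-KD. Without CTCFL-KD 1, the lower counts were 0, 1 and 1 in these lists, 1 in the S-phase list and 2 among the chaperones, and the higher counts were 0 replication-independent histones and 1 RNA without poly(A) tail.

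Direction changed only for fold changes that were not called. In CTCFL-OE, H2BC5 went to 0.034 with upper-quartile scaling, 0.022 with the 2 groups alone and 0.0029 with at least 10 counts in every library. H2BC8 went to −0.0024 with no low-count filter, −0.017 with the replicate block, −0.050 with the trends removed and −0.068 with both. H1-10 went to −0.017, −0.19 and −0.23 in the latter 3. With 1 library left out, the CTCFL-OE ranges that crossed 0 were −0.12 to 0.097 for H1-10, −0.28 to 0.092 for H2AC20, −0.00032 to 0.39 for H2BC15, −0.079 to 0.015 for H2BC5, −0.28 to 0.15 for H2BC8, −0.35 to 0.056 for H3C10 and −0.019 to 0.11 for H4C14. H1-10 ranged from −0.0027 to 0.87 in CTCFL-KD against Control and from −0.012 to 0.84 against CTCFL-OE.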
